A study of Mus musculus with 15 samples.

Results

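The genes described are 10 components of the machinery that carries mature mRNA out of the nucleus, chosen by symbol and found by Ensembl identifier among the 55536 annotated genes of the count table. They are the 6 THO subunits Thoc1, Thoc2, Thoc3, Thoc5, Thoc6 and Thoc7, the 2 adaptors Alyref and Chtop, and the 2 subunits of the export receptor, Nxf1 and Nxt1. Poly(A) RNA was sequenced from CD8+ T cells of OT-I Tg mice on a C57BL/6J background, which carry a transgenic receptor for an ovalbumin peptide and which the study's methods describe as lacking Rag1 or Rag2. The cells were transferred into wild-type C57BL/6J recipients, which keep their own lymphocytes. In the Ag group the recipients were given the peptide with a control antibody, and in the Ag+Costim group they were given the peptide with agonists of OX40 and 4-1BB, costimulatory receptors of activated T cells, so both groups had seen antigen. Spleen and lymph node CD8+ cells were sorted at day 4 according to the labels, and 5 libraries of each group were used. The study's methods describe a gate on the donor's congenic marker and on both chains of the transgenic receptor, and a harvest somewhat earlier than the day in the labels. A further 5 naive libraries in the labels were not analysed here. The labels name no animals, while the study describes its replicates as individual biological ones, and p-values measure the spread between libraries.

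The THO complex is loaded onto RNA while it is being transcribed and spliced, and together with a helicase and adaptor proteins it forms the TREX complex. The adaptors Alyref and Chtop bind RNA and pass it to the heterodimer of Nxf1 and Nxt1, which moves the mRNA through the nuclear pore. Splicing promotes the loading of this machinery, and unspliced transcripts are normally held in the nucleus.

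Library totals ranged from 59598556 to 639070261 estimated counts, and 20714 to 51778 genes had a count. Ag 3 had the lowest total, and its 5 erythroid markers summed to 1102 CPM (counts scaled to a common library total), against 3.80 to 125 in the other libraries. The 6 CD8 T cell markers summed to 3122 to 6140 CPM in Ag and 4132 to 5039 CPM in Ag+Costim. The 3 CD4 T cell markers summed to 0.885 to 11.4 CPM over all libraries, and no marker of any list was at 0 in all of them. The 6 B cell markers summed to 643 to 1179 CPM in Ag and to 515 to 764 CPM in Ag+Costim, most of it Ighm. The 6 myeloid markers summed to 35.3 to 120 CPM in Ag and 64.8 to 150 CPM in Ag+Costim, and the 2 NK cell markers to 2.09 to 16.4 and 0.473 to 2.16 CPM. The mean log2 CPM of 18 cell cycle genes was 6.03 in Ag 1 and 6.13 in Ag 4, and 8.34 to 9.33 in the other 8 libraries. Ag 2 and Ag 5 had the fewest genes with a count, 21779 and 20714. The part of these differences in the results below was not tested.

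All 10 export genes were expressed in every library and had a higher mean in Ag+Costim than in Ag, but none passed the test. With edgeR's quasi-likelihood test, the Benjamini-Hochberg (BH) adjusted p was 0.227 for Thoc1, the lowest of the 10, against a threshold of 0.05. None of the 24262 genes tested passed either (0.0% called), although 4501 had an unadjusted p under 0.05. The median log2 fold change of the 10 genes was 0.46, beside 0.24 for the 8626 genes averaging at least 10 CPM and -0.32 for all genes tested. A positive fold change was found for 10 of the 10 genes and for 75.6% of the 8626 genes. In bulk RNA, a lower share of cells with a high level and a lower level in each cell cannot be told apart.

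**Figure D1:**
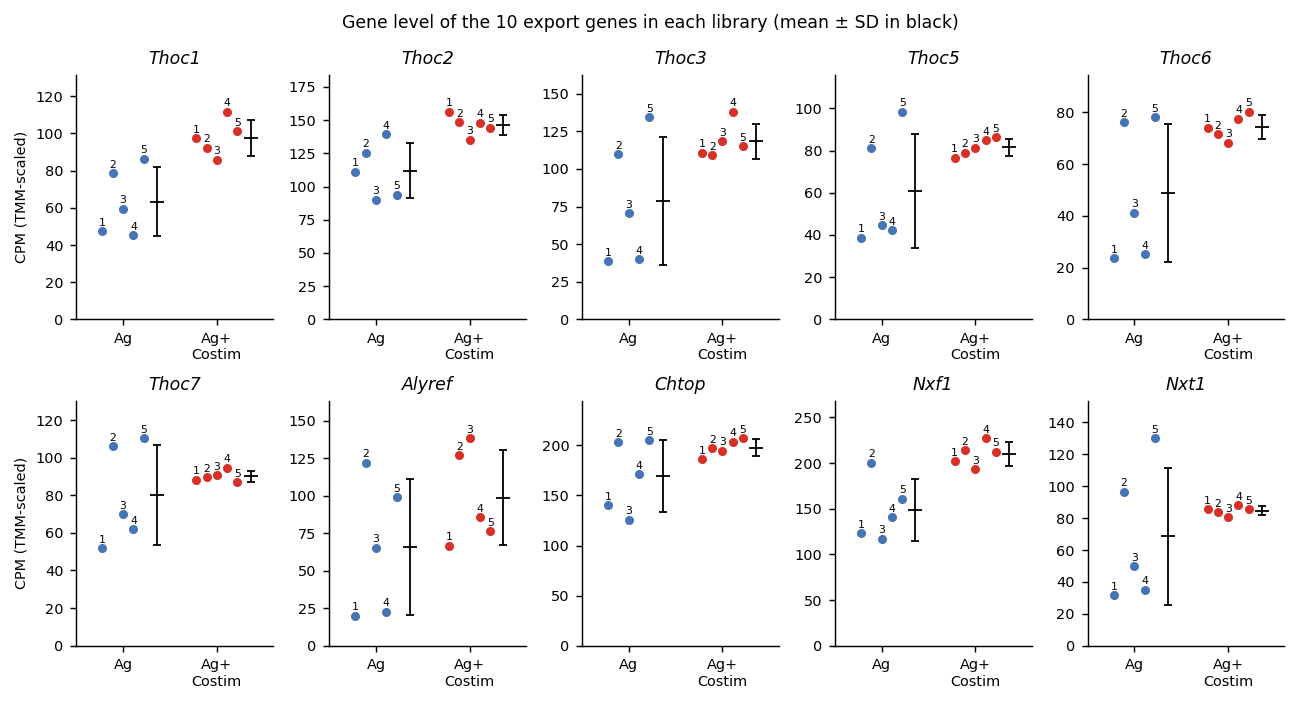
CPM of each export gene (vertical axes, from 0) in the 5 Ag and 5 Ag+Costim libraries, with the replicate number beside each point and the mean ± SD in black. In Alyref, Nxt1 and Thoc3 the points of Ag 1 and Ag 4 lie lowest, at 20.1 to 39.8 CPM, and in all 10 genes the 5 Ag libraries spread wider than the 5 Ag+Costim libraries.

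Thoc1 and Thoc2 are core subunits of THO, Thoc2 being the large scaffold on which the others assemble. Thoc1 was at 47.4, 78.5, 59.5, 45.3 and 86.4 CPM in Ag 1 to 5 and at 97.6, 92.4, 85.9, 112 and 101 CPM in Ag+Costim 1 to 5. The groups overlapped only because Ag 5 lay just above Ag+Costim 3. The log2 fold change of Thoc1 was 0.62 ± 0.20 (SE, n = 5 per group, edgeR BH-adjusted p = 0.227). Thoc2 was at 111, 125, 90.1, 139 and 93.9 CPM in Ag and at 156, 149, 135, 148 and 144 CPM in Ag+Costim. Ag 4 alone reached into the range of the Ag+Costim libraries, and Ag 4 was one of the lowest Ag libraries for most of the other genes. The log2 fold change of Thoc2 was 0.39 ± 0.15 (SE, edgeR BH-adjusted p = 0.254).

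Thoc3, Thoc5, Thoc6 and Thoc7 complete the complex. Thoc3, a WD40-repeat subunit, was at 38.7, 110, 70.5, 39.8 and 134 CPM in Ag and at 111, 109, 118, 138 and 115 CPM in Ag+Costim. Thoc5 was at 38.7, 81.1, 44.7, 42.2 and 98.3 CPM in Ag and at 76.6, 78.9, 81.4, 84.9 and 86.2 CPM in Ag+Costim. Thoc6, also a WD40-repeat protein, was at 23.5, 76.1, 41.2, 25.2 and 78.1 CPM in Ag and at 74.1, 71.4, 68.2, 77.5 and 80.1 CPM in Ag+Costim. In these 3 genes Ag 2 and Ag 5 lay within or above the Ag+Costim libraries and Ag 1, 3 and 4 lay below all of them. Thoc7 was at 51.8, 106, 70.1, 62.0 and 110 CPM in Ag and at 88.3, 89.6, 90.7, 94.7 and 87.0 CPM in Ag+Costim, with Ag 2 and Ag 5 above every Ag+Costim library. The log2 fold changes were 0.59 ± 0.33 for Thoc3, 0.42 ± 0.26 for Thoc5, 0.61 ± 0.33 for Thoc6 and 0.17 ± 0.21 for Thoc7 (SE). The edgeR BH-adjusted p-values of these 4 genes ran from 0.306 to 0.614.

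Alyref binds the exon junction and cap complexes and hands mRNA to the receptor, and it varied more than any of the other 9 genes among the Ag+Costim libraries. It was at 20.1, 122, 65.3, 22.8 and 99.2 CPM in Ag and at 66.7, 127, 138, 85.5 and 76.3 CPM in Ag+Costim. Its log2 fold change was 0.58 ± 0.48 (SE, edgeR BH-adjusted p = 0.454), with a difference no larger than the spread between libraries. Chtop, the second adaptor, was at 140, 203, 126, 171 and 205 CPM in Ag and at 186, 197, 195, 204 and 207 CPM in Ag+Costim. Ag 2 and Ag 5 were among the Ag+Costim libraries, and the log2 fold change of Chtop was 0.23 ± 0.16 (SE, edgeR BH-adjusted p = 0.391).

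Nxf1 is the receptor that contacts the pore, and Nxt1 is the small partner that keeps its fold stable. Nxf1 was at 123, 201, 117, 141 and 161 CPM in Ag and at 202, 214, 194, 227 and 212 CPM in Ag+Costim. Only Ag 2 reached the Ag+Costim range, and the log2 fold change of Nxf1 was 0.50 ± 0.17 (SE, edgeR BH-adjusted p = 0.232). Nxt1 was at 31.5, 96.6, 49.96, 35.1 and 130 CPM in Ag and at 85.6, 83.7, 80.5, 88.1 and 85.5 CPM in Ag+Costim. The 5 Ag+Costim libraries of Nxt1 spanned 80.5 to 88.1 CPM while Ag 2 and Ag 5 lay above that span and Ag 1, 3 and 4 below it, and its log2 fold change was 0.30 ± 0.36 (SE, edgeR BH-adjusted p = 0.601).

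The unadjusted edgeR p was under 0.05 for 3 of the 10 genes, Thoc1, Thoc2 and Nxf1, all higher in Ag+Costim, as for 7.89% of all genes tested and for 20.2% of those averaging at least 10 CPM. By the CPM given above, no export gene had all Ag+Costim libraries above all Ag libraries. Such a separation was found for 4.48% of all genes tested and for 11.3% of those averaging at least 10 CPM. DESeq2's Wald test called 2 of the 10 genes higher in Ag+Costim, Thoc1 (adjusted p = 0.0318) and Nxf1 (adjusted p = 0.0301), where it called 2.57% of genes higher. limma voom with a quality weight for each library called all 10 higher, where it called 25.8% of genes higher. The DESeq2 and limma voom shares are over genes of any level, and none was computed for genes averaging at least 10 CPM. Such genes more often had a positive edgeR fold change, 75.6% against 37.7% of all genes tested. limma voom gave Ag 2 and Ag 5 the lowest weights, 0.0986 and 0.0656, and Ag 3 had 0.508. On the Ag side its fold changes rest mainly on Ag 1 (1.42) and Ag 4 (2.00), the libraries with the low cell cycle level. Its log2 fold change of Alyref was 1.901.

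**Figure D2:**
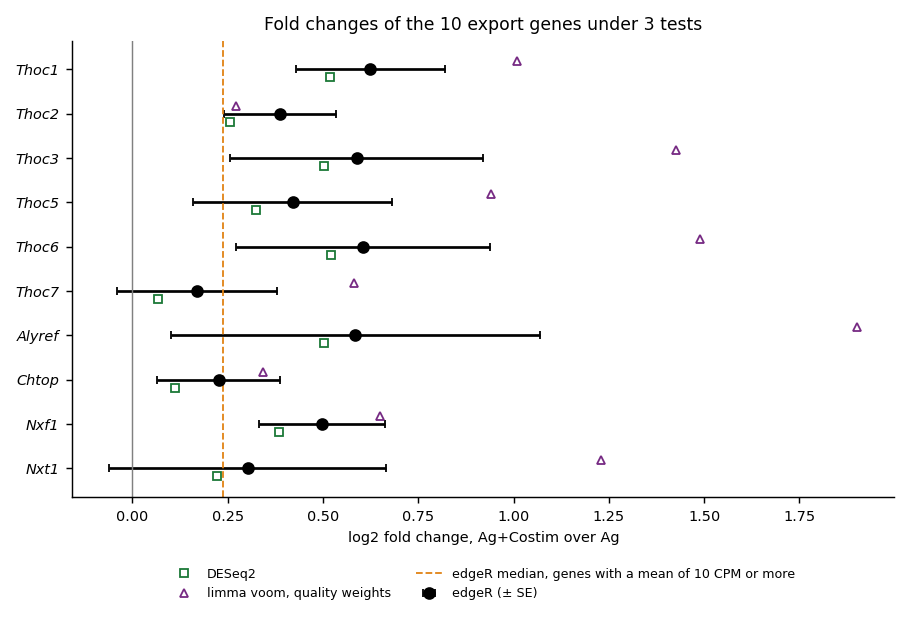
Log2 fold change of each export gene, Ag+Costim over Ag (horizontal axis), from edgeR (black, bars ± SE), DESeq2 (squares) and limma voom with quality weights (triangles). The dashed line is the edgeR median of the 8626 genes averaging at least 10 CPM, 0.24, and the edgeR points run from 0.17 for Thoc7 to 0.62 for Thoc1.

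The direction depended on scaling, and on leaving out Ag 1 and Ag 4 together, for the genes nearest 0. With total counts in place of TMM factors the median log2 fold change of the 8626 genes moved from 0.24 to 0.00, that of the 10 genes was 0.24, and 8 of the 10 were positive, Thoc7 (-0.039) and Chtop (-0.020) being negative. With total counts all Ag+Costim libraries of Thoc1 lay above all its Ag libraries, where 2.76% of all genes tested did so. Without Ag 1 and Ag 4, the libraries with the low cell cycle level, none of the 10 genes passed the edgeR test, and Thoc7 (-0.076) and Nxt1 (-0.12) were negative. Leaving out any 1 library turned none of the 10 signs, but sizes moved. The log2 fold change of Nxt1 was 0.12 without Ag 1, 0.14 without Ag 4 and 0.68 without Ag 5, and that of Thoc7 was 0.050 without Ag 1 and 0.33 without Ag 5. That of Alyref was 0.36 without Ag 1 and 0.94 without Ag 2, that of Thoc5 was 0.67 without Ag 5, and that of Thoc3 was 0.88 without Ag 5. That of Chtop was 0.14 without Ag 3 and 0.32 without Ag 5. With no filter on low counts all were larger, Nxt1 being at 0.62 and Thoc7 at 0.50. Without Ag 2 and Ag 5, edgeR called all 10 genes higher, where it called 17.9% of all genes, at any level, higher. Those are the Ag libraries nearest to Ag+Costim for most of these genes, so leaving them out widens the difference by construction, and that count is no test of costimulation. The 18 cell cycle genes all had a positive log2 fold change, with summed levels of 1448 to 11885 CPM in Ag and 10776 to 13645 CPM in Ag+Costim, and their part in the levels of the export genes was not tested.

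Levels were compared between genes per length of transcript, as TPM computed from the transcript counts, each divided by the transcript's length and scaled to a common total. In Ag+Costim, Thoc7 was highest at 152 ± 3.56 TPM (SD, n = 5), followed by Chtop at 134 ± 5.16 TPM and Nxt1 at 133 ± 4.15 TPM, which did not differ beyond their spread. Nxf1 was at 101 ± 7.08 TPM, Thoc3 at 81.7 ± 7.80 TPM and Thoc6 at 76.3 ± 4.86 TPM, the last 2 within their spread of each other. Thoc5 was at 55.9 ± 2.62 TPM, Alyref at 44.2 ± 14.2 TPM, Thoc1 at 42.9 ± 3.57 TPM and Thoc2, the scaffold, had the lowest mean at 30.5 ± 2.34 TPM. In Ag the spread was wider and the order less clear. Thoc7 had the highest mean at 137 ± 22.9 TPM, within its spread of Chtop at 125 ± 18.3 TPM, which was above it in Ag 1 and Ag 4, and of Nxt1 at 109 ± 41.7 TPM, which was above it in Ag 5. Thoc2 at 28.1 ± 10.01 TPM did not differ beyond its spread from Alyref at 30.3 ± 15.9 TPM. On this scale the Ag+Costim libraries of Nxf1, Thoc1 and Thoc3 all lay above their Ag libraries, 3 of 10 genes, where 4.93% of all genes tested did so. No share was computed on this scale for genes averaging at least 10 CPM. On the CPM scale that share was 11.3%, against 4.48% of all genes tested. Thoc1 was at 29.6 to 36.4 TPM in Ag and 37.5 to 46.7 TPM in Ag+Costim, and Nxf1 was at 69.3 to 90.2 TPM in Ag and 94.1 to 111 TPM in Ag+Costim.

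Nxf1 and Chtop each have an annotated transcript that keeps an intron, and these transcripts took a large part of both genes' counts. Intron 10 of Nxf1 (mm10, chr19:8765032-8766796, plus strand, 1765 bases) is spliced out in Nxf1-201 and kept in Nxf1-209. This intron is known to carry an element that lets the unspliced mRNA leave the nucleus with the help of the Nxf1 protein itself. Nxf1-209 is 4042 bases long with 1254 coding bases, against 2326 bases with 1854 coding bases in Nxf1-201, and both are annotated as protein coding. The windows below, from the GENCODE M21 transcripts, show why counts can be assigned to one form or the other: the first crosses the joined exons, the others cross the edges of the kept intron, whose first and last 2 bases are in capitals.
Nxf1 spliced junction: gtccagctatatcagcgccattcgcgaacg
Nxf1 kept intron, 5′ edge: gtccagctatatcagGTcagttgtagcctc
Nxf1 kept intron, 3′ edge: tcccgttcttgacAGcgccattcgcgaacg

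The share of Nxf1 transcripts keeping intron 10, counted per length, was 74.2%, 49.6%, 48.7%, 75.6% and 28.1% in Ag 1 to 5. It was 57.6%, 54.5%, 47.9%, 43.5% and 52.4% in Ag+Costim 1 to 5. Ag 1 and Ag 4 had the highest shares and Ag 5 the lowest, on both sides of the Ag+Costim libraries. The mean was 55.3% ± 19.9 over Ag and 51.2% ± 5.57 over Ag+Costim libraries (SD, n = 5), a difference smaller than the spread (two-sided exact permutation p = 0.706, BH-adjusted p = 0.930 over 9949 introns). By counts not divided by length, Nxf1-209 took 40.5% to 84.1% of the gene's counts in Ag and 57.2% to 70.2% in Ag+Costim.

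Intron 2 of Chtop (mm10, chr3:90506262-90507544, minus strand, 1283 bases) is spliced out in Chtop-202 and other forms and kept in Chtop-205, which has 534 coding bases against 747 in Chtop-202. Retention of this intron is known as a way in which the Chtop protein limits its own mRNA. Its windows are laid out as those of Nxf1.
Chtop spliced junction: gtctctaaatgagcgctttactaatatgct
Chtop kept intron, 5′ edge: gtctctaaatgagcgGTgaggcagccaaca
Chtop kept intron, 3′ edge: tgttcgaccttgaAGctttactaatatgct

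The share of Chtop transcripts keeping intron 2 was 36.3%, 30.6%, 31.1%, 38.7% and 24.8% in Ag 1 to 5 and 30.02%, 29.3%, 30.3%, 32.5% and 31.6% in Ag+Costim 1 to 5. As for Nxf1, Ag 1 and Ag 4 were highest and Ag 5 lowest. The means were 32.3% ± 5.43 and 30.7% ± 1.28 (SD, n = 5, two-sided exact permutation p = 0.540, BH-adjusted p = 0.824 over 9949 introns). Over the 10 genes, 21 introns could be measured in this way and 18 had a lower mean retention in Ag+Costim, as 73.7% of all 9949 introns did. None passed the adjusted threshold among the 9949 introns (0.0% called), of which 8.85% had an unadjusted p under 0.05. In these 10 genes, introns of Thoc1 (chr18:9959172-9959254 and chr18:9992276-9992831) and Thoc7 (chr14:13953539-13954538) were under it. Their two-sided exact permutation p was 0.0476, 0.0079 and 0.0397, with differences of -7.67, -1.13 and -5.04 percentage points. This measure was added after the transcript values had been seen. With 5 against 5 libraries the smallest p possible is 0.0079, so BH adjustment can call an intron only if 15.9% of all introns reach it, and 2.19% did.

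**Figure D3:**
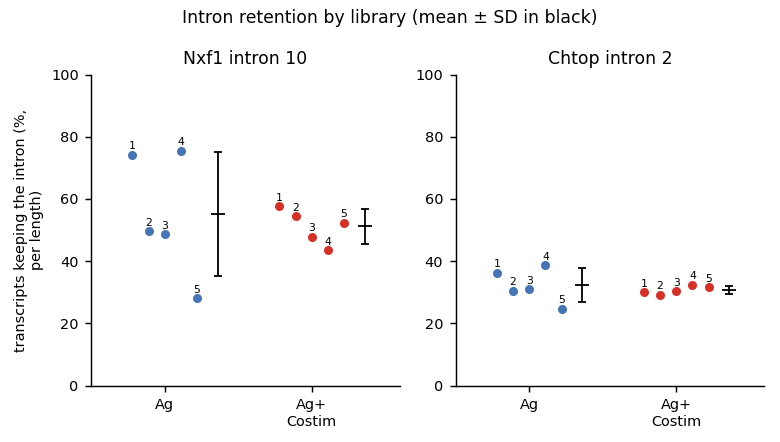
Share of transcripts keeping intron 10 of Nxf1 and intron 2 of Chtop, per length (vertical axes, 0 to 100%), in the 5 Ag and 5 Ag+Costim libraries, with replicate numbers and the mean ± SD in black. The Ag points of Nxf1 run from 28.1% to 75.6% and enclose all Ag+Costim points.

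Transcripts annotated as retained intron or as targets of nonsense-mediated decay, which degrades mRNA with an early stop, could be measured in 7 of the 10 genes. In all 7 the mean share of counts on such transcripts was lower in Ag+Costim, as in 80.0% of the 7461 genes measured. Thoc1 had 27.9%, 16.8%, 18.9%, 30.2% and 9.25% in Ag and 14.3%, 12.7%, 9.85%, 7.18% and 9.65% in Ag+Costim. Thoc7 had 20.1%, 7.001%, 39.0%, 16.7% and 7.91% in Ag and 7.44%, 5.92%, 6.56%, 7.40% and 5.18% in Ag+Costim. In both genes the Ag library with the lowest share lay among the Ag+Costim libraries, and in Thoc7 the shallow library Ag 3 was highest.

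The difference was -9.90 percentage points for Thoc1 (two-sided exact permutation p = 0.0476, BH-adjusted p = 0.386) and -11.6 for Thoc7 (two-sided exact permutation p = 0.0238, BH-adjusted p = 0.386). Without Ag 3 the difference of Thoc7 was -6.42 percentage points. Thoc1 and Thoc7 are 2 of 7 genes with an unadjusted p under 0.05, where 12.3% of all genes measured had one. No gene passed after adjustment (0.0% called), which 15.9% of genes at the smallest p would have been needed for, and 2.75% were there. Thoc6 averaged 18.4% ± 8.22 over Ag and 11.8% ± 1.91 over Ag+Costim libraries (SD, n = 5, two-sided exact permutation p = 0.135), a difference of -6.64 percentage points that was -3.82 without Ag 4. Thoc2, Thoc3, Alyref and Nxf1 had means of at most 1.82% in either group.

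**Figure D4:**
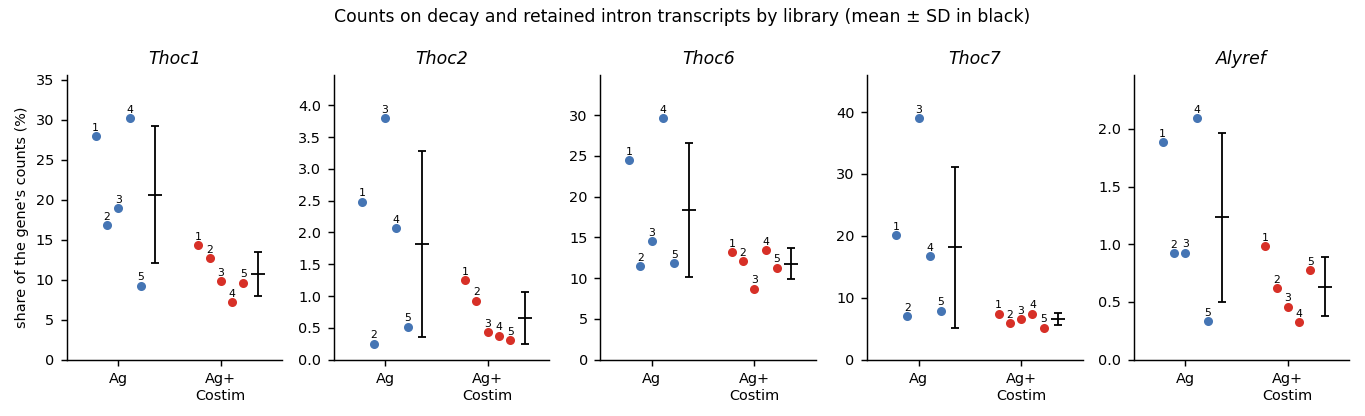
Share of a gene's counts on nonsense-mediated decay and retained intron transcripts (vertical axes, in percent from 0) for the 5 genes with a mean over 1%, by library, with replicate numbers and the mean ± SD in black. For Thoc1 the Ag libraries run from 9.25% to 30.2% and the Ag+Costim libraries from 7.18% to 14.3%.

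Most of the 10 genes had most of their counts, not divided by length here, on 1 transcript. Thoc2-201 took a mean of 97.9% of its gene's counts in Ag and 99.1% in Ag+Costim, Alyref-201 took 98.2% and 99.2%, and Thoc5-201 took 97.6% and 98.8%. Thoc3-201 took 94.9% and 96.8%. Nxt1-201 took 89.3% and 89.97%, with Nxt1-202, of the same coding length of 420 bases, taking the rest. Thoc1-201 took 78.8% ± 8.63 in Ag and 88.2% ± 3.04 in Ag+Costim, and its retained intron transcript Thoc1-211 took 10.5% ± 4.25 and 5.85% ± 1.26 (SD, n = 5). Per length, Thoc1-201 took a mean of 59.3% in Ag and 74.3% in Ag+Costim, and Thoc3-201 took 87.5% and 91.6%.

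Thoc6, Thoc7 and Chtop were divided over more forms. Thoc6-201, Thoc6-204 and Thoc6-202 have the same coding length of 1023 bases and took 34.2%, 28.4% and 18.9% in Ag and 47.1%, 26.5% and 14.7% in Ag+Costim. The Ag mean of Thoc6-201 included 9.44% in Ag 3, against 35.5% to 43.6% in the other 4 Ag libraries. The retained intron transcript Thoc6-206 took 17.6% and 11.2%. Thoc7-201 took 60.4% in Ag and 70.5% in Ag+Costim, and the decay transcript Thoc7-202 took 10.6% and 3.03%. Both Ag means included Ag 3, where Thoc7-201 took 42.6%, against 60.5% to 69.8% in the other 4 Ag libraries. Thoc7-202 took 24.2% in Ag 3 and 3.98% to 11.8% in the others. Chtop-205, Chtop-202 and Chtop-203 took 29.2%, 31.8% and 22.5% in Ag and 31.8%, 28.9% and 27.4% in Ag+Costim. The test of transcript usage (edgeR's diffSpliceDGE, Simes gene-level p) called none of the 10 genes, where it called 0.297% of 10441 genes. Thoc5 was the only 1 of the 10 with an unadjusted p under 0.05 (0.0160, edgeR BH-adjusted p = 0.499), where 6.42% of genes had one, and its largest share change was 1.15 percentage points. limma's diffSplice called none of the 10 either.

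The Whippet table, made by the authors from junction reads, gave 1 percent-spliced-in (PSI) value per group and held 157 events in the 10 genes. Of these, 125 were core exons, and 129 of the 157 had a PSI over 90% in both groups. None passed the thresholds of the study's methods, a Whippet probability above 0.9 with PSI changing by more than 0.05, which 1.05% of all 138940 events passed. A difference over 5 percentage points was found for 3 of the 157 events (1.91%), against 11.9% of all events, and all 3 were in Chtop. The shares of all events include genes of any level, and none was computed for genes averaging at least 10 CPM. With 1 value per group the differences have no replicate check.

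The retained part of Chtop intron 2 next to its 5′ edge (chr3:90507259-90507544) was included at 32.6% in Ag and at 22.8% in Ag+Costim, with a probability of 0.776. The rest of the intron (chr3:90506262-90507258), listed as an alternative acceptor, had 33.1% and 22.9%, with a probability of 0.766. The transcript counts gave 32.3% and 30.7% for the whole intron, close to the PSI in Ag and above it in Ag+Costim. A tandem 3′ end of Chtop (chr3:90499695-90500107) was used at 18.04% in Ag and at 24.1% in Ag+Costim, with a probability of 0.874. Intron 10 of Nxf1 had no row among those used here.

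The sources also differed for a Chtop core exon of 138 bases (chr3:90502116-90502253). Its PSI was 94.9% in Ag and 94.2% in Ag+Costim, while the transcripts holding it made up a mean of 42.02% and 36.03% of the transcripts spanning it, per length. The transcripts that keep intron 2, Chtop-205 among them, and the spliced Chtop-203 are annotated without this exon. Which source is nearer to the RNA was not tested.

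In the other 9 genes the largest PSI difference was 4.90 percentage points, in a first exon region of Nxt1 that went from 15.4% to 10.5%. Thoc5 had a tandem 3′ end at 79.6% in Ag and 76.8% in Ag+Costim, Thoc2 a core exon at 98.1% and 95.6%, and Thoc6 a tandem start at 96.7% and 99.0%. The largest difference of Nxf1 was 1.36 percentage points, in a region beyond the end of the gene in GENCODE M21. In Thoc1, Thoc3, Thoc7 and Alyref no event differed by more than 0.114 percentage points, and each of these largest differences was in a core exon with a PSI over 99% in both groups.

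**Figure D5:**
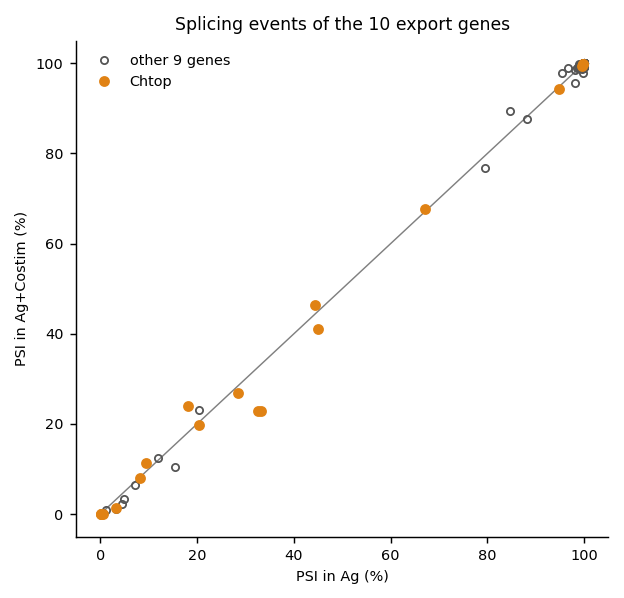
PSI in Ag+Costim (vertical axis, percent) against PSI in Ag (horizontal axis, percent) for the 157 events of the 10 genes, with Chtop filled and the line of equal values in grey. The 2 Chtop points furthest below the line, at 32.6% and 33.1% in Ag, are the pieces of intron 2.

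Most of the other listed export genes also had a positive log2 fold change, and edgeR called none of them. Of 41 listed gene entries, where Zc3h11a enters under each of its identifiers, 39 were tested. Of these, 35 had a positive log2 fold change (89.7%, beside 75.6% of the 8626 genes averaging at least 10 CPM). The median was 0.44, and none passed after BH adjustment in edgeR. Of the 39, 15 had an unadjusted p under 0.05, all higher in Ag+Costim, beside the 20.2% of genes averaging at least 10 CPM. DESeq2 called 8 of the 39 higher, where it called 2.57% of genes. limma voom called 32 of the 39 higher and 2 lower, where it called 25.8% of genes higher and 26.4% lower. The shares given for DESeq2 and limma voom are over genes of any level. Among genes of the nuclear pore and the cytoplasmic side, 10 of 10 were positive, with the lowest p for Ddx19a, a helicase that strips export factors from mRNA (log2 fold change 1.05 ± 0.21, SE, edgeR BH-adjusted p = 0.140). Ddx19a has a close paralogue, Ddx19b (0.41 ± 0.17), and how reads were divided between them is uncertain.

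All 5 cap-binding genes were positive, with the lowest p for Srrt, which links the cap complex to RNA processing (0.74 ± 0.17, SE, edgeR BH-adjusted p = 0.153). All 3 SR protein adaptors were positive, led by Srsf1, a splicing factor that also recruits Nxf1 (0.83 ± 0.22, SE, edgeR BH-adjusted p = 0.193). All 5 exon junction complex genes were positive, led by Casc3, a core component of that complex (0.45 ± 0.12, SE, edgeR BH-adjusted p = 0.193). Of 6 TREX-2 genes, which tie transcription to the pore, 5 were positive, led by the scaffold Mcm3ap (0.42 ± 0.18, SE, edgeR BH-adjusted p = 0.265), and Cetn2 was at -0.04 ± 0.16. Of the 10 tested entries for TREX-associated genes and paralogues 7 were positive, led by the adaptor Poldip3 (0.39 ± 0.12, SE, edgeR BH-adjusted p = 0.221). The lowest p on the negative side was that of Zc3h11a (-0.43 ± 0.33, SE, edgeR BH-adjusted p = 0.432), a symbol with 2 overlapping gene identifiers whose other entry had 0.55, so that their counts are uncertain.

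The genes whose log2 CPM followed the mean of the 10 export genes most closely over the 10 libraries were Utp3, Srp54c, Tm9sf2, Ppp2r1a and Ube2e1, with Pearson's r of 0.995, 0.995, 0.994, 0.993 and 0.993 among 8616 candidates. These are descriptions over libraries that share the division within Ag, and Srp54c has close paralogues whose reads it may share. Utp3 averaged 83.7 ± 27.3 CPM over the Ag libraries and 116 ± 6.86 CPM over the Ag+Costim libraries (SD, n = 5).

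In mm10, with the strand in parentheses, the genes lie as follows: Thoc1 at chr18:9957906-9995489 (plus), Thoc2 at chrX:41794991-41920674 (minus), Thoc3 at chr13:54458837-54468849 (minus), Thoc5 at chr11:4895320-4928867 (plus), Thoc6 at chr17:23668614-23673882 (minus), Thoc7 at chr14:13949012-13961852 (minus), Alyref at chr11:120592121-120598365 (minus), Chtop at chr3:90498956-90509498 (minus), Nxf1 at chr19:8757073-8770922 (plus) and Nxt1 at chr2:148672601-148676027 (plus). Some counts could include reads of a neighbour, since no source states whether strand was used in counting. Thoc1 overlaps Usp14 on the opposite strand over 2424 bases, Thoc7 overlaps Gm11100 over 547 bases and Atxn7 over 413 bases, Thoc2 overlaps Gm7657 over 666 bases, and Thoc6 overlaps Hcfc1r1 over 287 bases and Bicdl2 over 8 bases. Thoc5 holds the pseudogene AA413626 on its own strand over 494 bases. Alyref, Chtop, Nxf1, Nxt1 and Thoc3 overlap no annotated gene.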

How the data were processed

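The authors aligned reads to mm10 and obtained counts with StringTie. Per the submitters' processing notes, HISAT2 2.1.0, SAMtools 1.9 and StringTie 2.1.0 were used. The deposited gene and transcript tables hold estimated counts (expected counts), rounded and not normalized, so totals are not read numbers. The authors also deposited Whippet PSI values as a fraction per group with the libraries combined, and a probability, a score and no p-value. The table's own PSI differences and entropy were not used.

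Identifiers were matched to GENCODE M21 (mm10), and 26345 other entries, 0.0458% to 0.308% of counts, were left out. Genes were tested with edgeR 4.0.16 (filterByExpr, TMM, robust quasi-likelihood) in R 4.3.3, with BH adjustment over all genes and a threshold of 0.05. CPM are TMM-scaled. DESeq2 1.42.0, limma 3.58.1 voom, other scalings, no filter, a replicate block and leaving out libraries were alternatives. Transcript usage needed an adjusted p under 0.05 and a share change over 0.1 (diffSpliceDGE). Shares were tested over the 252 assignments of 5 against 5 libraries, for genes or introns with 20 counts in every library. An intron was measured where 1 annotated transcript keeps it and another splices it. The edgeR gene test, diffSpliceDGE and the permutation test were tried on simulated data, and the alternatives were not. The simulated counts varied less between libraries than the real gene counts did, so they do not show the power in these data.

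The members and lists were chosen with earlier results of these data known. All 10 genes are named. Of the pathway lists the gene with the lowest p in each direction is named. The 5 genes most like the members were ranked by correlation of log2 CPM over the 10 libraries. Other named transcripts have a mean share of 10% or more in a group, and other events are the largest PSI difference of each gene, beside the Chtop events, which were chosen after their values were seen.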

Additional observations from a re-analysis of the deposited data

Results flagged for a closer look

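In 1 of 38 groups of 5 libraries examined, 1 library stood apart from the others by Dixon's criterion for 5 values (0.71), which chance meets in about 1 of 20 groups. The share of Nxf1 counts on retained intron and decay transcripts was 0.01% in Ag 5, against 0.188% to 0.228% in the other 4 Ag libraries.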

How the results depend on the processing

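edgeR called 0 genes, and 0 of the 10 export genes, also with other scaling factors, with no filter, with the replicate block and without any single library. DESeq2 called 8046 genes (2 of the 10) and limma voom with quality weights 12670 (10 of the 10). Without Ag 2 and Ag 5, edgeR called 16322 genes (10 of the 10), and 2701 genes (6 of 7) passed for the share on decay and retained intron transcripts, against 0 otherwise. That setting was chosen after seeing the data and removes the Ag libraries nearest to Ag+Costim. Transcript usage was called in 31 genes, in 145 by limma diffSplice, in 19 with at least 50 counts in 5 libraries, in 33 to 93 without 1 library, in 195 without Ag 1 and 4 and in 483 without Ag 2 and 5, and in 0 of the 10 in each. Log2 fold changes turned for Thoc7 (-0.039 with total counts, -0.036 with upper quartile, -0.076 without Ag 1 and 4), Chtop (-0.020 with total counts) and Nxt1 (-0.12 without Ag 1 and 4). With decay transcripts alone the share difference was 0.0788 points for Thoc2, 0.00222 for Nxf1 and -8.13 for Thoc7 (two-sided exact permutation p = 0.0079). Retention differences of Nxf1 intron 10 ran from -10.8 to 1.03 points without 1 library (0.685 without Ag 1, 1.03 without Ag 4) and were 9.04 without Ag 1 and 4. Those of Chtop intron 2 ran from -3.42 to 0.0676 (without Ag 4) and were 1.94 without Ag 1 and 4. The cause was not tested. Same-numbered libraries did not deviate together in every pair (r from -0.30 to 0.25), which cannot show whether the numbers pair them. With the replicate block the log2 fold change of Nxf1 was 0.52.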
